A study of Rattus norvegicus with 20 samples.

Results

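The nuclear-encoded subunits of the 5 oxidative phosphorylation complexes were followed in rat gastrocnemius muscle. The members were the protein-coding rows of the count table whose symbol begins with Nduf and a subunit letter and number, is Sdha to Sdhd or Cyc1, or begins with Uqcr, with Cox4 to Cox8 or with Atp5. The rule took 89 of 22242 protein-coding rows, from 85 distinct symbols, and used no expression value. Of these rows, 81 passed the filter on low counts and were tested: 33 of complex I, 4 of complex II, 10 of complex III, 18 of complex IV and 16 of complex V. Ndufa4 and its paralog Ndufa4l2 were placed in complex IV, since the Ndufa4 protein is a cytochrome c oxidase subunit.

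The data are 20 libraries of total RNA depleted of ribosomal RNA, from muscle of 3 groups of female Fischer 344 rats, all carrying the Ward colorectal carcinoma, so that there was no tumour-free group. TUMOUR STD (5 libraries) ate the standard diet and had no chemotherapy. CHEMO STD (7 libraries) ate the same diet and had 2 cycles of CPT-11 followed by 5-FU, and CHEMO FO (8 libraries) had the same cycles and was moved to a diet with fish oil, a source of EPA and DHA, on the first day of chemotherapy. CHEMO STD versus TUMOUR STD addressed the effect of chemotherapy in the tumour-bearing state, and CHEMO FO versus CHEMO STD that of the diet during chemotherapy. The animals' age is given in the methods without a unit, and the labels do not tie a library to an animal, so the p values measure the spread between these samples.

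Oxidative phosphorylation takes place in the inner mitochondrial membrane. Complexes I and II pass electrons from NADH and succinate to ubiquinone, complex III passes them on to cytochrome c, complex IV gives them to oxygen, and complex V, the ATP synthase, uses the proton gradient that complexes I, III and IV build. The core of most complexes is shared between proteins made from mitochondrial DNA and proteins made from nuclear genes and imported, and complex II is wholly nuclear. In muscle these genes are highly expressed, and several cytochrome c oxidase subunits have a separate heart and muscle isoform.

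Counts on named genes ranged from 3020821 to 10857477 per library. The libraries CHEMO STD 1 and CHEMO STD 2 were nearly alike, with a chi-square per gene of 2.23 against at least 13.7 in every other pair within a group, and were counted as 1 sample (CHEMO STD n = 6). Levels are CPM, counts scaled to a common library size after TMM normalisation, and each mean is followed by its SD. The tissue label held: 6 skeletal muscle markers summed to between 70129 and 139440 CPM, the fast fibre list to between 103180 and 195400 CPM and the slow fibre list to between 5884.7 and 17168 CPM. CHEMO FO 18 had the lowest skeletal muscle and fast fibre sums and the highest TMM factor (1.21). TUMOUR STD 10 and CHEMO FO 16 held 529.12 and 111.31 CPM of keratinocyte genes, against 1.53 to 7.24 CPM in the other samples. Results that rest on these libraries are given with and without them. In bulk muscle, fewer cells of a type and less RNA per cell cannot be told apart.

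Because the members are classical targets of a small set of transcription factors, their promoters are shown first. RefSeq promoters (build GRCr8, 250 bases before to 50 after the gene's start) matched 73 of the 85 symbols, and motifs were searched by exact letters on both strands. The YY1 core AAGATGGC was in 15 of the 73 (20.5%) and in 3.17% of all 33469 promoters in the table. The NRF1 core GCGCATGC was in 9 (12.3%, against 2.47%), and its letters overlap those of its own reverse complement. The ETS core CCGGAAGT, read by GABPA, was in 8 (11.0%, against 3.81%). The GGGCGG box of Sp1 was in 30 (41.1%, against 33.1%) and TATAAA in 7 (9.59%, against 14.2%). The median GC content was 56.0% in member promoters and 51.7% in all. The 33469 promoters were not matched to the members by gene type or GC content, so these shares do not show a trait particular to the members. A match is a description of the letters and not a site shown to be bound.

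Uqcrc1 and Cox8a are shown as members whose promoters hold 2 of these cores, and Cox7b as the member with the widest spread between samples among those with at least 50 counts in every library, whose promoter holds none of the 5 motifs. Capitals mark the NRF1, ETS and YY1 cores on either strand, which do not overlap each other here. The regions are chr8:118467973-118468272 (plus strand), chr1:213833574-213833873 (minus strand) and chrX:75148786-75149085 (plus strand), each written 5′ to 3′ along its gene.
Uqcrc1: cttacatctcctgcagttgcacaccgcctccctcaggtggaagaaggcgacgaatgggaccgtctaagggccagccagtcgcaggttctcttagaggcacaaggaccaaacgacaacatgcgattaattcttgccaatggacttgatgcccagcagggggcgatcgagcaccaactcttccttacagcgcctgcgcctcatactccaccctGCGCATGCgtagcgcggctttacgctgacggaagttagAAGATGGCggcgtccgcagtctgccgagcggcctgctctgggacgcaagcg
Cox8a: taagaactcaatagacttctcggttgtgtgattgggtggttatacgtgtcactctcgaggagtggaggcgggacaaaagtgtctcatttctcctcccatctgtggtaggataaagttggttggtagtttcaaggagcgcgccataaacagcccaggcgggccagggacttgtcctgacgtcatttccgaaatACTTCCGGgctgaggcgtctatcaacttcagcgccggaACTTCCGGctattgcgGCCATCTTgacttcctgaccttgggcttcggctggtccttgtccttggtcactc
Cox7b: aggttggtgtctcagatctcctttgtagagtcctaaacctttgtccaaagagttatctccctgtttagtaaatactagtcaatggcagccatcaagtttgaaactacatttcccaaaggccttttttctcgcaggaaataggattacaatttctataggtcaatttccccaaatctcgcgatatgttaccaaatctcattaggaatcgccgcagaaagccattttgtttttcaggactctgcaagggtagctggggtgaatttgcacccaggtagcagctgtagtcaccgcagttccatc

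After 2 cycles of chemotherapy on the standard diet, the transcripts of the 5 complexes lay close to their level in TUMOUR STD. The summed level of all members was 27536 ± 1191 CPM (n = 6) in CHEMO STD and 26191 ± 3018 CPM (n = 5) in TUMOUR STD, and the ranges overlapped, at 26169 to 29661 and 22763 to 28674 CPM. Of the 81 tested members, 55 had a higher and 26 a lower fitted level in CHEMO STD, their median log2 fold change being 0.07, against 5828 of 11716 genes higher and a median of 0.00 over all genes tested. Both values moved with single libraries: 48 members were higher (median 0.02) without TUMOUR STD 10, 45 (0.02) without TUMOUR STD 9, 72 (0.12) without TUMOUR STD 12 and 56 (0.12) without TUMOUR STD 8. The median SE of a single member's log2 fold change was 0.16, which is not the error of the members' median. The sample medians over members had a pooled SD within groups of 0.21 (log2). The study's own thresholds were kept: a call needed both an unadjusted p value under 0.05, here in edgeR's quasi-likelihood test, and a fold of 1.5 or more. By this rule 1 of 81 members (Cox4i2, lower) was called, against 2.38% of all genes tested. At an unadjusted p under 0.05 alone there were 2 members, Cox4i2 and the second Uqcrb row, against 6.5% of all genes. None passed a Benjamini-Hochberg adjusted p of 0.05, as was so for all genes (0.0%), and the lowest adjusted p of a member was 0.719. In no member were the samples of the groups free of overlap, against 0.487% of all genes. DESeq2 gave 3 members (3.7%) at an unadjusted p under 0.05, against 6.85% of all genes, and 0 at an adjusted one.

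**Figure D1:**
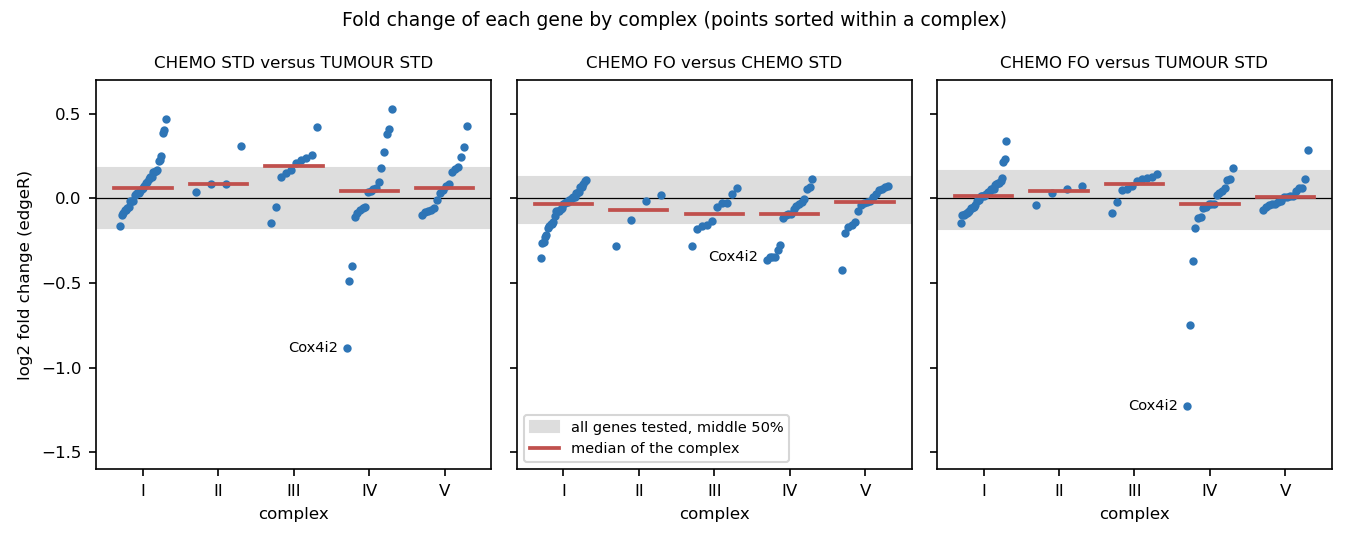
Log2 fold change (vertical axis, edgeR) of each tested gene in complexes I to V, for the 3 comparisons in turn, with points sorted within a complex, a red bar at the complex median and grey for the middle 50% of all genes tested. Most points lie within or near the grey band, and Cox4i2 at -0.88 and -1.23 is the lowest point against TUMOUR STD.

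Complex I had 23 of 33 members higher and a median of 0.06 (log2 fold change), and 0 at an unadjusted p under 0.05. The core subunits named here lay near their TUMOUR STD level. Ndufv1, which binds the NADH-oxidising flavin, had 384 ± 36.1 CPM in CHEMO STD and 402 ± 38.2 CPM in TUMOUR STD. Ndufs1, the largest subunit of the electron input arm, had 560 ± 106 and 518 ± 105 CPM. The members with the lowest p value were accessory subunits, and none was called. Ndufc1 had 68.5 ± 6.01 CPM against 51.9 ± 12.2 CPM (log2 fold change 0.40, SE 0.21, unadjusted p 0.0674 in edgeR, adjusted p 0.719).

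All 4 subunits of complex II, which is also the succinate dehydrogenase of the tricarboxylic acid cycle, had a higher fitted level, and none passed the test. The catalytic flavoprotein Sdha had 693 ± 74.3 CPM against 654 ± 93.9 CPM, and the membrane anchor Sdhd 405 ± 59.9 CPM against 326 ± 94.1 CPM. Complex III had the highest median of the 5 complexes (0.19), with 8 of 10 members higher. Cytochrome c1 (Cyc1) was at 419 ± 39.6 CPM against 434 ± 57.4 CPM, the Rieske iron-sulfur protein Uqcrfs1 at 515 ± 35.2 CPM against 471 ± 67.2 CPM, and the core protein Uqcrc2 at 556 ± 101 CPM against 472 ± 104.5 CPM. For these core subunits the difference was smaller than the larger SD of the groups.

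The symbol Uqcrb, a small ubiquinone-binding subunit, has 2 rows in the table. The second row was at 27.8, 16.3, 18.8, 22.2 and 26.4 CPM in TUMOUR STD 8 to 12. In CHEMO STD it ran from 23.9 through a median of 29.5 to 36.9 CPM, and in CHEMO FO from 19.3 through 24.2 to 29.8 CPM. TUMOUR STD 8 and 12 lay inside the CHEMO STD range and the other 3 TUMOUR STD samples below it. The log2 fold change was 0.42 (SE 0.155, unadjusted p 0.0119 in edgeR, adjusted p 0.719), under the 1.5-fold threshold, and the unadjusted p stayed under 0.05 in each of 30 alternative fits. The first and more abundant row had 68.8 ± 9.07 CPM in CHEMO STD and 58.7 ± 8.99 CPM in TUMOUR STD (unadjusted p 0.129 in edgeR, adjusted p 0.728). The split between the rows is uncertain, since no source used here says how reads that fit both were counted.

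Cox4i2 was the only member called against TUMOUR STD. It encodes the second isoform of cytochrome c oxidase subunit 4, known from lung and from responses to low oxygen, whereas Cox4i1 is the general isoform. Cox4i2 was at 4.34, 4.97, 5.34, 3.88 and 6.74 CPM in TUMOUR STD 8 to 12. In CHEMO STD the lowest sample was at 0.636 CPM, the median at 2.43 and the highest at 4.13. In CHEMO FO the lowest was at 1.41 CPM, the median at 2.19 and the highest at 3.22. All TUMOUR STD samples lay above every CHEMO FO sample, while in CHEMO STD replicate 7 reached into the TUMOUR STD range. The means were 5.05 ± 1.097 CPM in TUMOUR STD (n = 5), 2.61 ± 1.24 CPM in CHEMO STD (n = 6) and 2.19 ± 0.600 CPM in CHEMO FO (n = 8).

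For Cox4i2 the log2 fold change was -0.88 in CHEMO STD versus TUMOUR STD (SE 0.295, unadjusted p 0.00662 in edgeR, adjusted p 0.719) and -1.23 in CHEMO FO versus TUMOUR STD (SE 0.284, unadjusted p 0.000256, adjusted p 0.433). These comparisons share the TUMOUR STD samples. Over 30 alternative fits the first ran from -1.03 to -0.73 with unadjusted p values from 0.00262 to 0.0234, and the second from -1.31 to -1.101 with p values from 2.15e-05 to 0.00144, and Cox4i2 was called in each. DESeq2 gave an adjusted p of 0.0342 in CHEMO FO versus TUMOUR STD, where 11 of 11716 genes passed, and of 0.688 in CHEMO STD versus TUMOUR STD. The gene rests on few reads, 2 to 55 counts per library and 425 in all. Cox4i1 was at 608 ± 94.7, 573 ± 59.2 and 595 ± 107 CPM in TUMOUR STD, CHEMO STD and CHEMO FO, and its log2 fold changes against TUMOUR STD were -0.09 and -0.03.

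Several smooth muscle genes, like Cox4i2, had lower means in both chemotherapy groups than in TUMOUR STD. By Myh11 the order of samples within groups was not that of Cox4i2. TUMOUR STD 12 had the highest Cox4i2 of its group (6.74 CPM) and the lowest Myh11 (64.4 CPM). CHEMO FO 17 had the lowest Cox4i2 of its group (1.41 CPM) and the highest Myh11 (79.3 CPM). Of 7 tested smooth muscle markers, 7 were lower in CHEMO STD and 5 in CHEMO FO than in TUMOUR STD. Of these, 4 (Myh11, Acta2, Tagln and Mylk) were called in each comparison, against 2.38% and 3.6% of all genes. Myh11, the smooth muscle myosin heavy chain, had 95.1 ± 25.7 CPM in TUMOUR STD, 49.96 ± 12.2 CPM in CHEMO STD and 50.6 ± 14.5 CPM in CHEMO FO. Without Des, which skeletal fibres also express, the list summed to 269 to 396 CPM in TUMOUR STD. In CHEMO STD it was 195 to 302 CPM. In CHEMO FO it was 100 to 323 CPM, and 207 to 323 CPM without CHEMO FO 18. No marker of the list was at 0 in the table. By this sum TUMOUR STD 11, 8, 9 and 10 (269, 369, 380 and 396 CPM) had the same order as by Cox4i2. TUMOUR STD 12 (336 CPM) departed from it, and neither chemotherapy group had the order of Cox4i2. The part of these cells in the level of Cox4i2 was not tested.

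**Figure D2:**
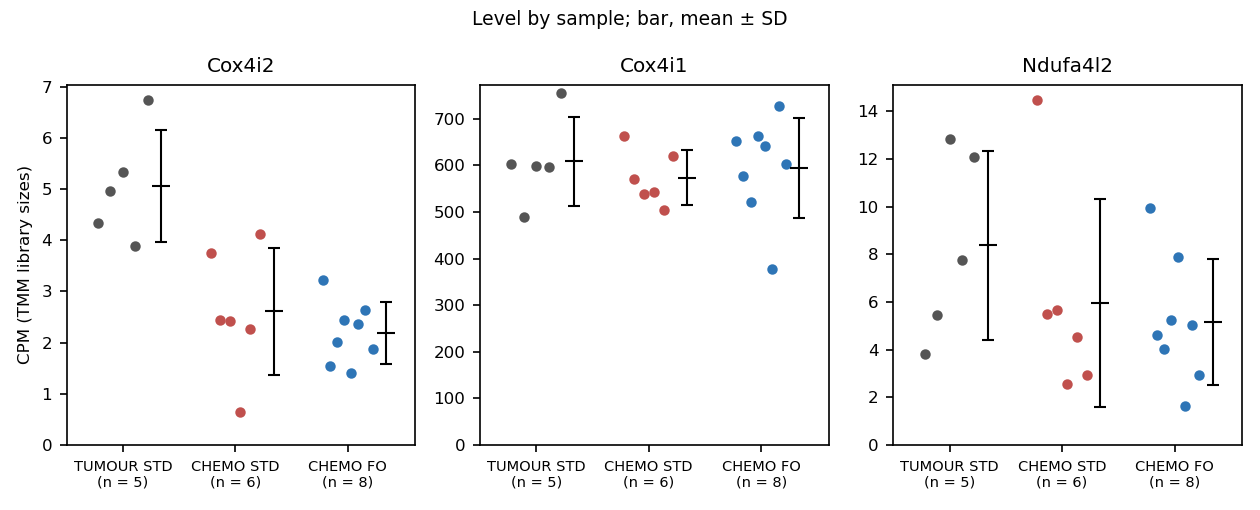
CPM (vertical axis, from 0) of Cox4i2, Cox4i1 and Ndufa4l2 in each sample of TUMOUR STD (n = 5), CHEMO STD (n = 6) and CHEMO FO (n = 8), with mean and SD beside the points. Cox4i2 in CHEMO FO, 1.41 to 3.22 CPM, lies below all TUMOUR STD samples, while the groups overlap for Cox4i1 and Ndufa4l2.

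The other complex IV members ranged widely in fold change and none was called against TUMOUR STD. Complex IV had 10 of 18 members higher in CHEMO STD, and its median was 0.04. Cox5a and Cox5b, structural subunits shared by all tissues, were at 488 ± 29.9 against 469 ± 101 CPM and at 480 ± 40.2 against 499 ± 71.2 CPM. Cox7b, a small subunit of the complex, had the highest log2 fold change of any member (0.53, SE 0.305, unadjusted p 0.0972 in edgeR, adjusted p 0.719), at 323 ± 65.4 against 224 ± 122 CPM. Its fold depended on single TUMOUR STD libraries: it was 0.30 without TUMOUR STD 10, and 0.77 without TUMOUR STD 8 and 0.70 without TUMOUR STD 11, where it was called. Without TUMOUR STD 8 the members called were 4 (Cox4i2, Cox7b, Ndufb3 and Cox6c), or 4.94%, against 4.48% of all genes in that fit. Without TUMOUR STD 11 they were 3 (Cox4i2, Cox7b and Ndufb3), or 3.7%, against 3.83%, and without CHEMO STD 1 and 2 they were 3 (Cox4i2, Ndufb3 and Ndufa4l2), against 5.2%. These shares are near or below those of all genes.

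Ndufa4l2, a paralog of Ndufa4 known as a target of the hypoxia-inducible factor, was at 3.82, 5.47, 12.8, 7.76 and 12.1 CPM in TUMOUR STD 8 to 12. CHEMO STD ran from 2.54 through a median of 5.03 to 14.5 CPM, and CHEMO FO from 1.64 through 4.83 to 9.95 CPM. The groups overlapped over most of their range, and the highest sample of all was the merged CHEMO STD 1 and 2. The log2 fold change was -0.40 (SE 0.42) in CHEMO STD and -0.75 (SE 0.41, unadjusted p 0.0794 in edgeR, adjusted p 0.573) in CHEMO FO versus TUMOUR STD. With CHEMO STD 1 and 2 left out it was -0.94 in CHEMO STD (unadjusted p 0.0261). Ndufa4l2 in CHEMO FO was called without CHEMO FO 13, without CHEMO FO 17, without TUMOUR STD 8 and without CHEMO STD 1 and 2, at -0.92, -0.87, -0.91 and -0.73. In each of these fits 2 members (2.47%) were called, against 4.3%, 3.79%, 4.77% and 3.65% of all genes.

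The ATP synthase of complex V held 10 of 16 members higher in CHEMO STD, with a median of 0.06 and 0 at an unadjusted p under 0.05. Its catalytic subunit Atp5f1b, with 474177 counts over all libraries, was at 3921 ± 207 CPM in CHEMO STD and 3523 ± 578 CPM in TUMOUR STD. The partner subunit Atp5f1a was at 2594 ± 122 and 2736 ± 280 CPM. The small stalk subunit Atp5f1e had the lowest p value of the complex (437 ± 32.0 against 354 ± 59.1 CPM, log2 fold change 0.31, SE 0.152, unadjusted p 0.0565 in edgeR, adjusted p 0.719). Atp5if1, the inhibitor that blocks the enzyme from running in reverse, was at 27.8 ± 1.15 and 29.8 ± 8.01 CPM.

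With fish oil during chemotherapy no member passed the threshold in edgeR. Against CHEMO STD, 0 of 81 members were called, against 1.66% of all genes, 0 had an unadjusted p under 0.05, against 4.51%, and 0 passed the adjusted threshold, against 0.0%, in edgeR. DESeq2 also gave 0 members at an unadjusted p under 0.05, against 4.68%. In no member were the groups free of overlap, against 0.0683% of all genes. Of the members 23 were higher and 58 lower, with a median log2 fold change of -0.05, against 5701 of 11716 higher and -0.01 over all genes, and the median SE of a member was 0.15. The complexes had medians of -0.03, -0.07, -0.09, -0.09 and -0.02 from I to V.

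The direction of the diet comparison turned on CHEMO FO 18. Without it 45 of 81 members were higher and the median was 0.04. With CHEMO FO 16 and TUMOUR STD 10 also left out, 56 were higher and the median was 0.07. With library totals in place of TMM 12 were higher, as without CHEMO FO 19, where the median was -0.09. The summed members stood at 26546 ± 4573 CPM in CHEMO FO (n = 8), at 27957 ± 2414 CPM in its 7 other samples and at 27536 ± 1191 CPM in CHEMO STD. The lowest unadjusted p values belonged to the second Uqcrb row (24.6 ± 3.13 against 29.9 ± 5.00 CPM, log2 fold change -0.28, p 0.0538 in edgeR, adjusted p 0.974) and to Ndufa4 (322 ± 75.5 against 397 ± 67.8 CPM, -0.30, p 0.103). The largest difference was in Atp5md, a small membrane subunit of the ATP synthase (66.8 ± 21.7 against 90.04 ± 26.1 CPM, -0.42, SE 0.253), and it was -0.26 without the 3 libraries.

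In CHEMO FO versus TUMOUR STD, which shares its samples with the other comparisons, 1 of 81 members (Cox4i2, lower) was called, against 3.6% of all genes. At an unadjusted p under 0.05 it was again 1, against 9.04%, and 0 passed the adjusted threshold in edgeR, against 0.0%. DESeq2 gave 2 members at an unadjusted p under 0.05, against 9.4% of all genes, and 1, Cox4i2, at an adjusted one. Cox4i2 was also the 1 member (1.23%) whose groups did not overlap, against 0.324% of all genes. The median log2 fold change of the members was 0.02, with 46 higher, against 0.00 over all genes. These values moved with single libraries: 72 of 81 were higher (median 0.10) without CHEMO FO 18. The direction turned without TUMOUR STD 10 (26 higher, median -0.05), CHEMO FO 19 (31, -0.02) or TUMOUR STD 9 (34, -0.02). The medians by complex were 0.02, 0.04, 0.09, -0.03 and 0.01 from I to V.

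The balance between complexes is given as shares. Complex V took 39.4% ± 0.490 of the members' summed CPM in TUMOUR STD, 39.1% ± 0.430 in CHEMO STD and 40.0% ± 0.889 in CHEMO FO. Complex I took 25.5%, 25.3% and 25.0%, complex IV 17.98%, 18.2% and 17.8%, complex III 11.0%, 11.1% and 11.0%, and complex II 6.16%, 6.38% and 6.11%. The group means of every complex lay within 1 percentage point of each other. In CHEMO FO the complex V share was 41.6% in CHEMO FO 18 and 41.0% in CHEMO FO 16, and 39.3% to 40.4% in the others. CHEMO FO 18 also had the lowest complex I share (23.1%) and the highest complex IV share (19.3%) of its group. TUMOUR STD 10 had the highest complex V share of its group (39.95%). These shares depend on transcript length as well as on level, so they are compared between samples only.

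The tissue isoforms of complex IV were compared as ratios within a sample. For Cox6a2, the heart and muscle form of subunit 6A, over Cox6a1, the general form, the log2 ratio of CPM was 4.69 ± 0.201, 4.70 ± 0.145 and 4.82 ± 0.104 in TUMOUR STD, CHEMO STD and CHEMO FO. For Cox8b, the muscle form of subunit 8, over Cox8a it was 3.99 ± 0.370, 4.22 ± 0.269 and 4.18 ± 0.346. The ratios have no correction for transcript length and are compared between groups only, and their group means differed by less than 1 SD of the widest group. The log2 ratio of Cox4i2 to Cox4i1 was -6.92 ± 0.261, -7.98 ± 0.893 and -8.11 ± 0.478. Its range in TUMOUR STD, -7.27 to -6.62, overlapped that of CHEMO STD, -9.74 to -7.23, and lay above that of CHEMO FO, -8.83 to -7.32. Cox7a1, the muscle form of subunit 7A, had only 249 counts in all libraries. The settings of the counting are not known, so this low count is not read here as near absence of the transcript.

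Samples of 1 group differed from each other more in some members than in others, with no clear break between them. Among the 78 members with at least 50 counts in every library, the mean coefficient of variation within groups reached 34.7%. The 8 widest were Cox7b, Atp5md, Cox6c, Ndufb3, Cox7c, Ndufa5, Sdhd and Ndufs5, chosen by this spread, so their values are a description. The last of them had 23.6%, the next member, Atp5f1d, 23.5%, and the median of the other 70 was 15.8%. They are mostly small accessory subunits and come from complexes I, II, IV and V.

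Cox7b stood at 362, 222, 70.8, 326 and 140 CPM in TUMOUR STD 8 to 12. It ran from 227 to 398 CPM in CHEMO STD, and from 117 in CHEMO FO 16 to 336 CPM in CHEMO FO. Cox6c, another small complex IV subunit, stood at 426, 277, 117, 341 and 192 CPM in TUMOUR STD 8 to 12 and at 121 CPM in CHEMO FO 16. For both genes the low samples were TUMOUR STD 10, TUMOUR STD 12 and CHEMO FO 16. The median log2 deviation of the 8 genes from their own medians over the 19 samples was -1.32 in TUMOUR STD 10, -1.09 in CHEMO FO 16 and -0.55 in TUMOUR STD 12, where the 70 other members had -0.30, -0.11 and 0.13. Their highest value was 0.50, in CHEMO STD 3. TUMOUR STD 10 and CHEMO FO 16 are also the samples with keratinocyte genes, TUMOUR STD 12 had 6.74 CPM of them, and their part in the spread was not tested.

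**Figure D3:**
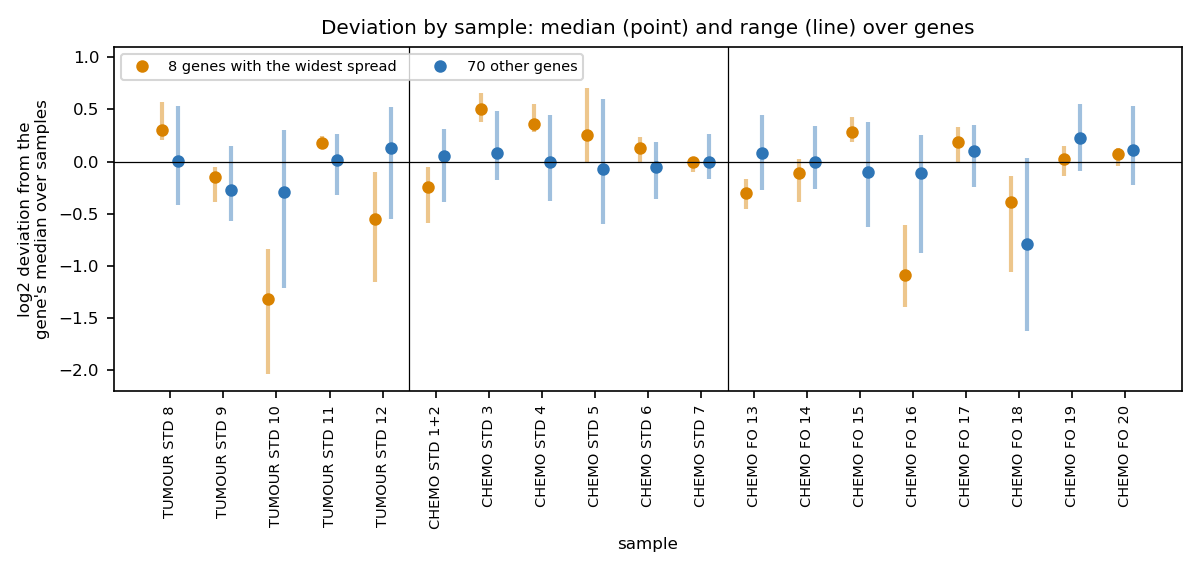
Log2 deviation of genes from their own median over samples (vertical axis) in each of 19 samples, for the 8 genes with the widest spread (orange) and 70 other members (blue), with points at the median and lines over the range of genes. The orange points fall to -1.32 in TUMOUR STD 10 and -1.09 in CHEMO FO 16, and the blue point is lowest in CHEMO FO 18 at -0.79.

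Cox7b, Ndufb3 and Atp5md had the 3 highest fold changes of all members in CHEMO STD versus TUMOUR STD, and these were smaller without TUMOUR STD 10. With TUMOUR STD 10, CHEMO FO 16 and CHEMO FO 18 left out, the log2 fold change in CHEMO STD versus TUMOUR STD was 0.30 for Cox7b (0.53 with them), 0.32 for Ndufb3 (0.47), 0.22 for Atp5md (0.43) and 0.21 for Cox6c (0.41). Ndufb3 is an accessory subunit of the complex I membrane arm. None of the 4 was called in that fit.

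CHEMO FO 18 was low across nearly all members. Of the 81 tested members, 70 lay below every other CHEMO FO sample: 31 of 33 in complex I, 4 of 4 in complex II, 9 of 10 in complex III, 13 of 18 in complex IV and 13 of 16 in complex V. Its members stood at a median of 57.2% of the median of the other 7 samples, and the complexes at 54.9%, 50.7%, 59.8%, 60.8% and 59.7% from I to V. Cyc1 had 160 CPM against 373 to 580 CPM in the other CHEMO FO samples, and Ndufb8, an accessory complex I subunit, 111 CPM against 296 to 427 CPM. Atp5if1 stood at 29.3 CPM, within the 22.7 to 35.0 CPM of the others, and Cox6c and Cox4i2 were also within their range.

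The depth of this drop depends on scaling, though not the rank of the sample. Members took 2.01% of the counts of CHEMO FO 18 with no scaling, and 2.16% to 3.05% in the other libraries, the next being TUMOUR STD 10. On TMM sizes they summed to 16670 CPM, against 22763 to 31455 CPM. In the same library the tricarboxylic acid cycle genes had a median log2 deviation of -0.67 and mitochondrial ribosomal protein genes of -0.36, while cytosolic ribosomal protein genes had 0.20. Macrophage markers summed to 794.34 CPM there against 218 to 512 CPM elsewhere. The part of cell composition in this library was not tested.

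**Figure D4:**
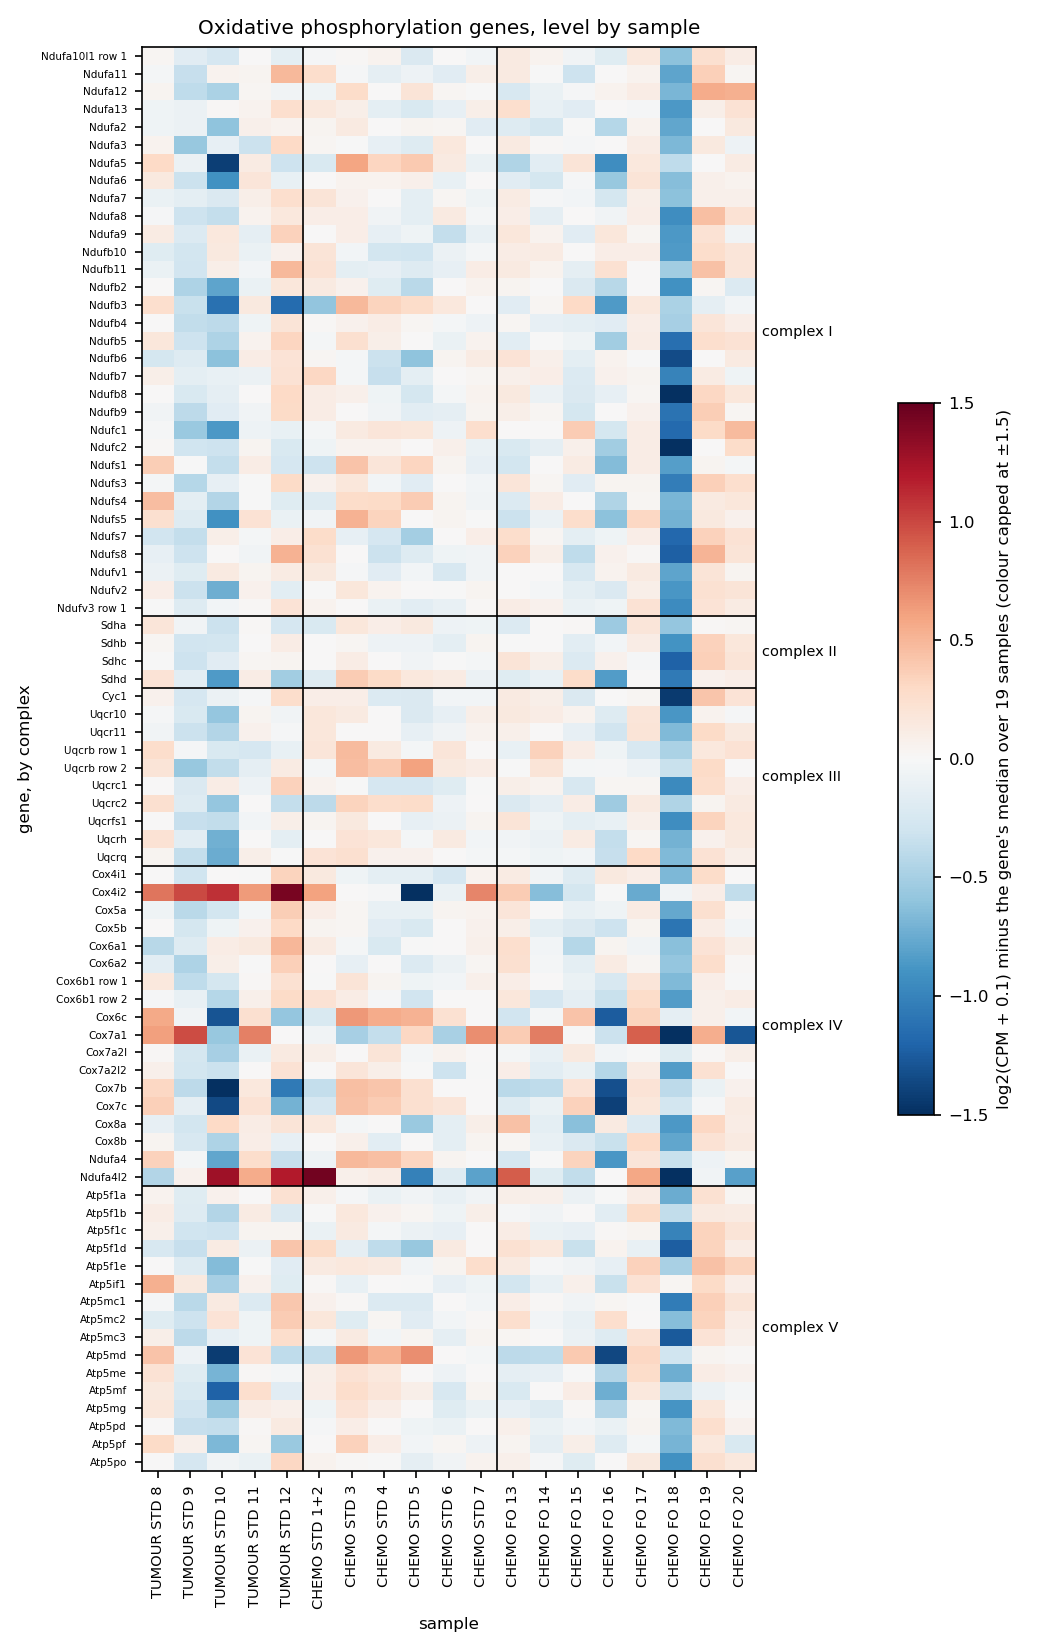
Colour shows log2(CPM + 0.1) minus the gene's own median over 19 samples, capped at ±1.5, for 80 of the 81 tested members (rows, by complex) in each sample (columns, by group). CHEMO FO 18 is blue in nearly every row. TUMOUR STD 9 has 76 of the 81 members below their own median, TUMOUR STD 10 has 62, and CHEMO FO 15 and CHEMO FO 16 have 55 each. The deepest blue of TUMOUR STD 10 and CHEMO FO 16 is in genes such as Cox7b, Cox6c and Atp5md, and Cox4i2 is red in TUMOUR STD.

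The genes that build and feed the complexes were read from companion lists. Chemotherapy on the standard diet had 41 of 45 tested assembly factors above the TUMOUR STD level (median log2 fold change 0.16), 3 (6.67%) at an unadjusted p under 0.05, near the 6.5% of all genes, and 0 called. The 3 were Cox11, which delivers copper to complex IV (15.4 ± 2.69 against 11.2 ± 2.85 CPM, log2 fold change 0.46, unadjusted p 0.0197 in edgeR, adjusted p 0.719), Ndufaf5 (31.3 ± 5.49 against 21.6 ± 6.84 CPM) and Ttc19, a complex III factor (37.2 ± 6.66 against 29.0 ± 5.67 CPM). Against TUMOUR STD, CHEMO FO had 34 of them higher, and 4 (8.89%) reached that unadjusted p, against 9.04% of all genes, again with 0 called. Between the diets 14 were higher in CHEMO FO, and Lyrm7, a complex III factor, was lower (4.74 ± 1.43 against 6.69 ± 1.41 CPM, unadjusted p 0.0491 in edgeR, adjusted p 0.974). Lyrm7 was the 1 factor (2.22%) at an unadjusted p under 0.05 there, against 4.51% of all genes.

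Of 18 further subunit and electron carrier genes tested, the level of 14 was higher after chemotherapy on the standard diet, and none was called in that comparison. Coq8b, of coenzyme Q synthesis, was called in CHEMO FO versus CHEMO STD (8.19 ± 7.63 against 4.54 ± 0.947 CPM, unadjusted p 0.0250 in edgeR, adjusted p 0.974), with an SD near its mean. It was the only gene of this list called there, against 1.66% of all genes. None of 16 tricarboxylic acid cycle genes reached an unadjusted p under 0.05 in any comparison in edgeR, and their medians were 0.08, -0.06 and -0.02 in the order of the comparisons above. Of 17 regulators of mitochondrial genes, none was called. At an unadjusted p under 0.05 in edgeR there were 2 (11.8%) in CHEMO FO versus CHEMO STD, against 4.51% of all genes. In CHEMO STD versus TUMOUR STD there was 1 (5.88%), against 6.5%. Ppard and Polrmt, the mitochondrial RNA polymerase, were higher in CHEMO FO than in CHEMO STD (log2 fold change 0.50 and 0.44, unadjusted p 0.0107 and 0.0268 in edgeR, adjusted p 0.974 for both), and Pprc1, a PGC-1-related coactivator, had a lower level after chemotherapy on the standard diet (-0.36, unadjusted p 0.0469, adjusted p 0.719).

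Mitochondrial ribosomal protein genes, which like the members are nuclear genes for imported proteins, had 60 of 71 higher in CHEMO STD and 62 in CHEMO FO than in TUMOUR STD, with medians of 0.16 and 0.14, 5 (7.04%) and 7 (9.86%) at an unadjusted p under 0.05, near the 6.5% and 9.04% of all genes, and 0 called. Cytosolic ribosomal protein genes had 76 and 79 of 84 higher, with medians of 0.20 and 0.23, 20 (23.8%) and 24 (28.6%) at that p and 0 called. The medians of the members, 0.07 and 0.02, were the lowest of these 3 lists. Slow fibre genes, whose fibres are rich in mitochondria, were lower than in TUMOUR STD in 12 of 12 in both chemotherapy groups, with medians of -0.41 and -0.32. Of these, 3 were called in CHEMO STD (Myh7, Atp2a2 and Ankrd2) and 1 in CHEMO FO (Myh7), against 2.38% and 3.6% of all genes. The slow myosin Myh7 was at 6805 ± 2232 CPM in TUMOUR STD, 3549 ± 719 CPM in CHEMO STD and 4472 ± 1911 CPM in CHEMO FO, while the members' sums did not separate the groups. Fast fibre genes had 7 of 10 higher in CHEMO STD and 0 called. Tendon markers were lower in 8 of 8 in both chemotherapy groups, with 3 called in each, against 2.38% and 3.6% of all genes. The tendon list summed to 2092 and 1766 CPM in TUMOUR STD 10 and 12. The other TUMOUR STD samples had 747 to 842 CPM, inside the 354 to 1481 CPM of the chemotherapy groups. Myelin markers had 4 of 5 called lower in CHEMO FO versus CHEMO STD, where 1.66% of all genes were called. The myelin list summed to 458 CPM in the merged CHEMO STD 1 and 2 and 279 CPM in CHEMO STD 7. The other CHEMO STD samples had 100 to 140 CPM, inside the 84.2 to 152 CPM of CHEMO FO. The part of both lists in the members' levels was not tested.

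**Figure D5:**
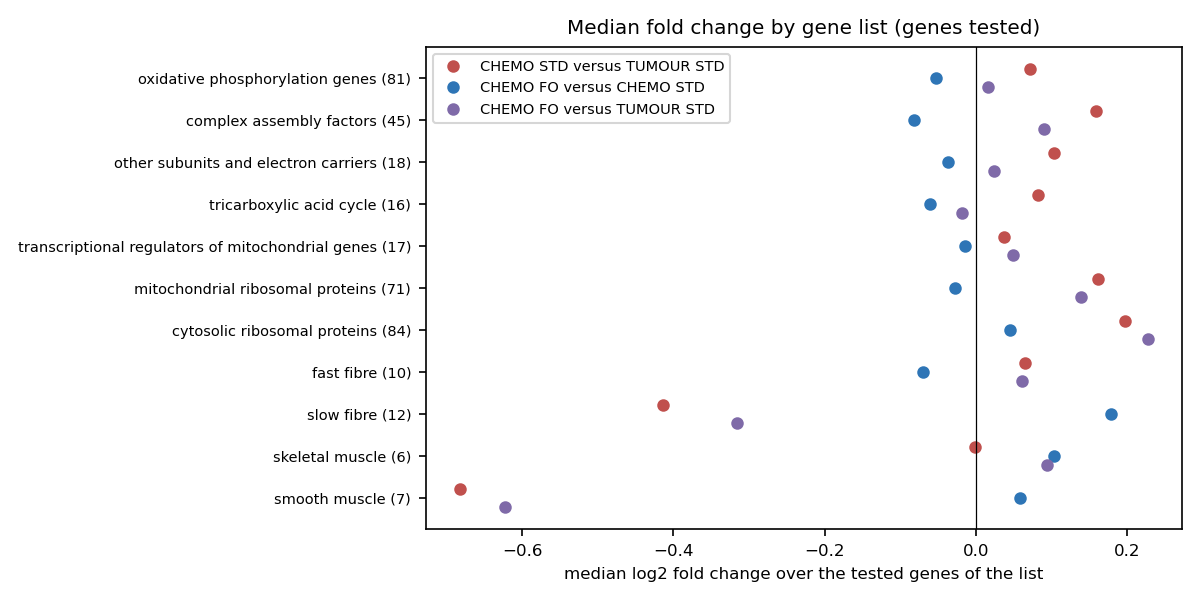
Median log2 fold change (horizontal axis) over the tested genes of the oxidative phosphorylation set and 10 other lists (rows, number of genes tested in brackets), coloured by comparison. The oxidative phosphorylation medians lie between -0.05 and 0.07, and slow fibre and smooth muscle medians lie below -0.3 against TUMOUR STD.

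The remaining 8 member rows were not tested. Ndufa1, Cox7b2, Cox8c, Cox6c-ps1 and the second Ndufa10l1 row had 0 counts in every library. Atp5pb and the second Ndufv3 row had 4 counts each in all and Cox6b2 12. Ndufa1 and Atp5pb encode subunits that complexes I and V need, so a row at or near 0 is not read here as absence of the transcript. All 13 mitochondrial-encoded subunit rows were also at 0 in every library, so the mitochondrial part of the complexes could not be followed. Where a symbol has 2 rows, each row was tested alone.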

How the data were processed

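The 20 libraries, of gastrocnemius RNA from tumour-bearing rats, were prepared with a stranded, rRNA-depleted kit. The authors trimmed the reads (Trim Galore 0.4.1), aligned them to Rnor 6 (Tophat 2.0.10, Bowtie2), used Partek Flow and Ensembl gene models, and deposited integer counts per gene, not normalised. The sources used here do not give the settings of the counting, such as strand and shared reads. The 388 rows without a gene name (0.102% to 0.272% of a library) were left out and 32495 kept.

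From the counts, the 3 groups were fitted together in edgeR 4.0.16 (R 4.3.3): default filter (minimum count 10, minimum total 15), TMM sizes, quasi-likelihood test, two-sided, with Benjamini-Hochberg adjustment over all 11716 genes tested. The study's methods used DESeq2. CHEMO STD 1 and 2 were summed in the fit and averaged as CPM. Log2 deviations used log2(CPM + 0.1). The pipeline was tested on simulated data.

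Members named were those called, the 3 with the lowest p values in each direction and comparison, the lowest of each complex, the tissue isoforms, the core subunits and, from each other list, genes called or with the lowest p of a comparison. Ndufaf5, Ttc19, Polrmt, the first Uqcrb row, Ndufb8, Cox6c, Ndufb3, Cox7c, Ndufs5 and Atp5f1d were named after their values were seen. The members and lists were chosen with earlier results of these data known. Alternatives were DESeq2 1.42.0, RLE factors, library totals, no filter, a mean of 10 counts, limma voom (3.58.1) with quality weights, CHEMO STD 1 and 2 kept apart or both left out, only the groups compared, other thresholds, each library left out and, added after seeing the data, TUMOUR STD 10, CHEMO FO 16 and 18 left out together. Depth limits low genes: at a few counts per library only large differences could be seen. Figures used matplotlib 3.10.9. No transcript lengths were used, so levels were compared between samples and not between genes, and ratios and shares of genes likewise. The values of 1 member are not reported here, though it is counted in every total.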

Additional observations from a re-analysis of the deposited data

Results flagged for a closer look

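Dixon's test for a sample far from its group was run on 153 groups of values, and chance alone marks about 1 in 20 of independent groups. These groups are not independent, since they share the same samples and the complex sums contain genes also tested. The test marked 16, of which 12 were low values in CHEMO FO 18. These were Atp5f1a at 1596 CPM, Atp5f1c at 336.8, Atp5mc1 at 216.0 and Atp5mc3 at 160.5 CPM, Cox5a at 286.5 and Cox5b at 231.0 CPM, Ndufa9 at 155.8, Ndufb10 at 67.86 and Ndufs7 at 138.1 CPM, and the summed levels of complex I at 3846, complex III at 1713 and complex V at 6931 CPM. In CHEMO STD the merged replicates 1 and 2 were high for Ndufa4l2 (14.48 CPM), and replicate 3 was high for Ndufv2 (461.9 CPM), Sdhc (372.5 CPM) and complex III (3359 CPM).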

How the results depend on the processing

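Members called in CHEMO STD versus TUMOUR STD numbered 1 in edgeR, 2 at an unadjusted p under 0.05 with no fold threshold, 0 at an adjusted p, 2 with no filter (Atp5pb, of 4 counts in all, beside Cox4i2), 3 without CHEMO STD 1 and 2, and 1 to 4 when each library was left out. In CHEMO FO versus TUMOUR STD they numbered 1 in edgeR, 0 at an adjusted p, 2 with no filter (Atp5pb again), 2 without CHEMO STD 1 and 2, and 1 to 2 when each library was left out, with 2 (Ndufa4l2 added) without CHEMO FO 13, CHEMO FO 17 or TUMOUR STD 8. In these last 3 fits 2.47% of members were called, against 4.3%, 3.79% and 4.77% of all genes. Without CHEMO STD 1 and 2 it was 2.47% against 3.65%. With no filter it was 2.38% in both comparisons, against 5.01% of all genes in CHEMO STD and 5.76% in CHEMO FO. In CHEMO FO versus CHEMO STD the number called was 0 in each of 32 alternatives. Members at an unadjusted p under 0.05 there numbered 0 in edgeR, 9 with voom quality weights (3 higher and 6 lower, or 11.1%, against 11.4% of all genes) and at most 1 in the other alternatives. In CHEMO STD versus TUMOUR STD that number was 2 in edgeR and reached 9 without TUMOUR STD 8 (11.1%, against 10.1% of all genes). The members' median log2 fold change in CHEMO STD versus TUMOUR STD stayed above 0 in each of 30 alternatives (0.02 to 0.12). In CHEMO FO versus CHEMO STD it changed sign with voom quality weights (0.0457) and without TUMOUR STD 10, CHEMO FO 16 and CHEMO FO 18 (0.0672), and ran from -0.0923 to 0.0409 when each library was left out, turning positive without CHEMO FO 18. In CHEMO FO versus TUMOUR STD it changed sign with library totals (-0.00326) and ran from -0.0477 to 0.1003 when each library was left out, turning negative without TUMOUR STD 9 (-0.0244), TUMOUR STD 10 (-0.0477) or CHEMO FO 19 (-0.0200). The cause of these changes of sign was not tested. For the 46 tested members named by rule, 4133 alternative values kept their side of the threshold and 7 passed it newly (Cox7b and Ndufa4l2). Outside the rule, Ndufb3 was newly called in 3 alternatives and Cox6c in 1. Sign changes of members that no fit called were not counted. No paired analysis was possible because the groups share no replicate numbers.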
